A study of Mus musculus with 18 samples.

Results

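Matrix metalloproteinases (MMPs), ADAMs, ADAMTSs and their tissue inhibitors (TIMPs) were followed in the kidneys of mice subjected to unilateral ischemia and reperfusion (UIR). Members were the genes of the deposited table whose symbol starts with Mmp, Timp, Adam or Adamts followed by a digit and whose FPKM (fragments scaled by transcript length and by library total) was above 0 in at least 3 of 18 libraries. Of 68 matching symbols, 65 qualified among the 20825 genes of the table, namely 21 MMPs, 4 TIMPs, 22 ADAMs and 18 ADAMTSs. Adam6a, Adam6b and Adamts19 were above 0 in 1 library each and were left out. The groups were UIR kidneys at days 1, 3 and 21 after surgery and sham kidneys at the same days, with 3 labelled biological replicates in each. All mice were C57BL/6 of 11 postnatal weeks with no genetic change named. In the UIR mice the pedicle of the right kidney was closed for 45 minutes and then reopened while the left kidney was left in place. The labels name neither the kidney that was sequenced nor the sex of the mice.

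Members of these families are zinc-dependent enzymes and their inhibitors. MMPs are made as inactive precursors, cut collagens, laminins, fibronectin and elastin once activated, and are held in check by TIMPs, which plug the active site. ADAMs are mostly membrane proteins that shed the outer part of growth factors, cytokine receptors and adhesion molecules, and ADAMTSs are secreted enzymes that cut proteoglycans, trim procollagens or process von Willebrand factor. In the injured kidney both families are studied for their part in inflammation, tubular repair and the build-up or removal of scar matrix.

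FPKM sums per library ran from 424207 to 549490, and read depth is unknown because the table holds no counts. Kidney markers were present, with the summed FPKM of 10 proximal tubule genes at 1029 to 2660, 334.6 to 490.5 and 57.5 to 364 in UIR kidneys at days 1, 3 and 21, against 2446 to 2770, 6579 to 7017 and 6459 to 7531 in sham kidneys. Sham kidneys of day 1 lay below the later sham kidneys in this sum. The median log2 fold over the 14716 genes tested was -0.03, 0.44 and 0.53 at days 1, 3 and 21, and 0.00, 0.03 and 0.03 after median-of-ratios scaling, so folds at the later days are to be read against that shift. In whole tissue, a change in the number of cells of a type and a change in RNA per cell cannot be told apart.

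The 6 tested members that share a stretch of chromosome 9 moved on different days, and their promoter windows are shown here for that reason. In the RefSeq order the stretch holds Mmp13, Mmp12, Mmp1b, Mmp3, Mmp1a, Mmp10, Mmp8, Mmp27, Mmp20 and Mmp7, of which Mmp1a and Mmp1b were not analysed here. Each window runs from 250 bases before to 50 bases after a RefSeq start on the plus strand of GRCm38.p6, and all 6 genes lie on that strand. The windows are chr9:7272264-7272563 for Mmp13, chr9:7344147-7344446 for the outer and chr9:7347124-7347423 for the inner start of Mmp12, chr9:7445572-7445871 for Mmp3, chr9:7502092-7502391 for Mmp10, chr9:7558179-7558478 for Mmp8 and chr9:7691840-7692139 for Mmp7. Capitals mark the AP-1 motif, TGACTCA or its reverse complement TGAGTCA, searched on both strands.
Mmp13: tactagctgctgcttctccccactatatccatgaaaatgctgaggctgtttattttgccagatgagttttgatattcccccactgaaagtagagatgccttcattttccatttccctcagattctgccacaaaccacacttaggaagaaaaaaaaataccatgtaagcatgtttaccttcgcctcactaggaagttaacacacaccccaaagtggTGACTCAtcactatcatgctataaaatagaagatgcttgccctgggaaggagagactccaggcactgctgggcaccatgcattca
Mmp12 outer start: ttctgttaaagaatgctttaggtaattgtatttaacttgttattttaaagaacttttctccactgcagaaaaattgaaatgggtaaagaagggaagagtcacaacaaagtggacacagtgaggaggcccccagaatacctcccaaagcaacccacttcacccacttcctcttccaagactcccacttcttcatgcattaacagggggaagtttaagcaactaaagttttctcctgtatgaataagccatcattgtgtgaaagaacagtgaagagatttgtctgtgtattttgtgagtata
Mmp12 inner start: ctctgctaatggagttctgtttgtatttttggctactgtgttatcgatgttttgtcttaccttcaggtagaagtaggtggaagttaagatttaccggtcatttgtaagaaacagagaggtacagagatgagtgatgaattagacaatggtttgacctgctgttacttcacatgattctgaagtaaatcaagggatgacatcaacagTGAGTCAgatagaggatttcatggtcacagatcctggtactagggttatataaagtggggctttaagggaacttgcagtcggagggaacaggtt
Mmp3: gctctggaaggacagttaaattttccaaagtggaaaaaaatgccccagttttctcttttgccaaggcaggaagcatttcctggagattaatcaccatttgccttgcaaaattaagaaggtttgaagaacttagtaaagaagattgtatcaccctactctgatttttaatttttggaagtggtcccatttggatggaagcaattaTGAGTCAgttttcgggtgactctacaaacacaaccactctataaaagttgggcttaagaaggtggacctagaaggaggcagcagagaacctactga
Mmp10: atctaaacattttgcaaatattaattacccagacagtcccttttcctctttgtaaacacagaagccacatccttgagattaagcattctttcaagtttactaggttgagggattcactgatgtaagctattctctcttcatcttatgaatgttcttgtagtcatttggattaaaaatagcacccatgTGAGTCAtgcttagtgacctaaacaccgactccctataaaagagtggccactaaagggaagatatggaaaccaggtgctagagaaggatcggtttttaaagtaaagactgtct
Mmp8: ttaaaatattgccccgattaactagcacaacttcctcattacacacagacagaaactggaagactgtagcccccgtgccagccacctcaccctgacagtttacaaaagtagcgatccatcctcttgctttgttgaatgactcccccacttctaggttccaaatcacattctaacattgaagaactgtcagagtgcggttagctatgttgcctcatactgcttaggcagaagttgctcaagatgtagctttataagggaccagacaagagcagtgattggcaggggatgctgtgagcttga
Mmp7: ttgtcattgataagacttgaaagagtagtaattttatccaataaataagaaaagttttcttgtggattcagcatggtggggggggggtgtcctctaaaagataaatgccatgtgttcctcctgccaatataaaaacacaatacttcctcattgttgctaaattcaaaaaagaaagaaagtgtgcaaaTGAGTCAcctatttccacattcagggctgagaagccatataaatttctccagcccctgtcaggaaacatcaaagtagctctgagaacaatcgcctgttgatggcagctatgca

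The AP-1 letters began 35 bases before the start in Mmp13, 46 before it in Mmp3, 63 before it in Mmp10 and in Mmp7, and 44 before the inner start of Mmp12. The outer Mmp12 window and the Mmp8 window held no such letters, nor did the window of an inner Mmp7 start. Of the 65 members 40 had a window in the RefSeq table, and 7 of these (17.5%) held the motif in at least 1 window, against 1607 of 27018 genes (5.95%) in the whole table. Matches of letters are a description of these windows and not of binding.

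Of the 65 members, 44 had at least 1 FPKM in at least 3 libraries and entered the test, namely 16 MMPs, 3 TIMPs, 12 ADAMs and 13 ADAMTSs. At day 1, 14 of the 44 were higher and 11 lower in UIR kidneys by limma at an adjusted p under 0.05, where 28.5% of all genes tested were higher and 31.1% lower. At day 3, 30 were higher and 2 lower, against 57.6% and 17.9% of all genes; the lower ones were 4 without UIR replicate 1. At day 21, 40 were higher and 1 lower, against 60.7% and 20.1% of all genes. Median log2 folds of the tested members were -0.01, 0.73 and 1.61 at the 3 days, beside -0.03, 0.44 and 0.53 for all genes, and the 16 tested MMPs had a median of 2.73 at day 21. All 3 UIR values lay above the 3 sham values for 15, 32 and 39 tested members at days 1, 3 and 21, against 29.5%, 59.3% and 62.8% of all genes, and below them for 14, 2 and 1, against 31.7%, 19.4% and 21.5%. Of the 44, 21 passed the filter only through UIR libraries. Their counts and the medians above, that of the MMPs included, are thus partly set by the filter. Such MMPs were Mmp3, Mmp7, Mmp8, Mmp9, Mmp10, Mmp12, Mmp13, Mmp17, Mmp19 and Mmp25. Among the 23 that passed on sham libraries alone, 6 were higher and 8 lower at day 1, 17 and 2 at day 3, and 20 and 1 at day 21. The matching share of all genes that pass on sham libraries alone was not computed, so these counts have no background of their own. With no filter beyond the rule for members, 14 of all 65 were higher and 11 lower at day 1, where 23.3% of the 19540 genes then tested were higher and 24.6% lower. The counts were 34 and 2 at day 3 (47.7% and 14.3% of those genes) and 53 and 1 at day 21 (55.2% and 15.9%). With 3 libraries a group, the smallest two-sided p of an exact permutation test is 0.1, so calls on single members rest on limma. Its p-values set a difference against the spread between labelled replicates, pooled over all 18 libraries and moderated over all genes tested.

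**Figure D1:**
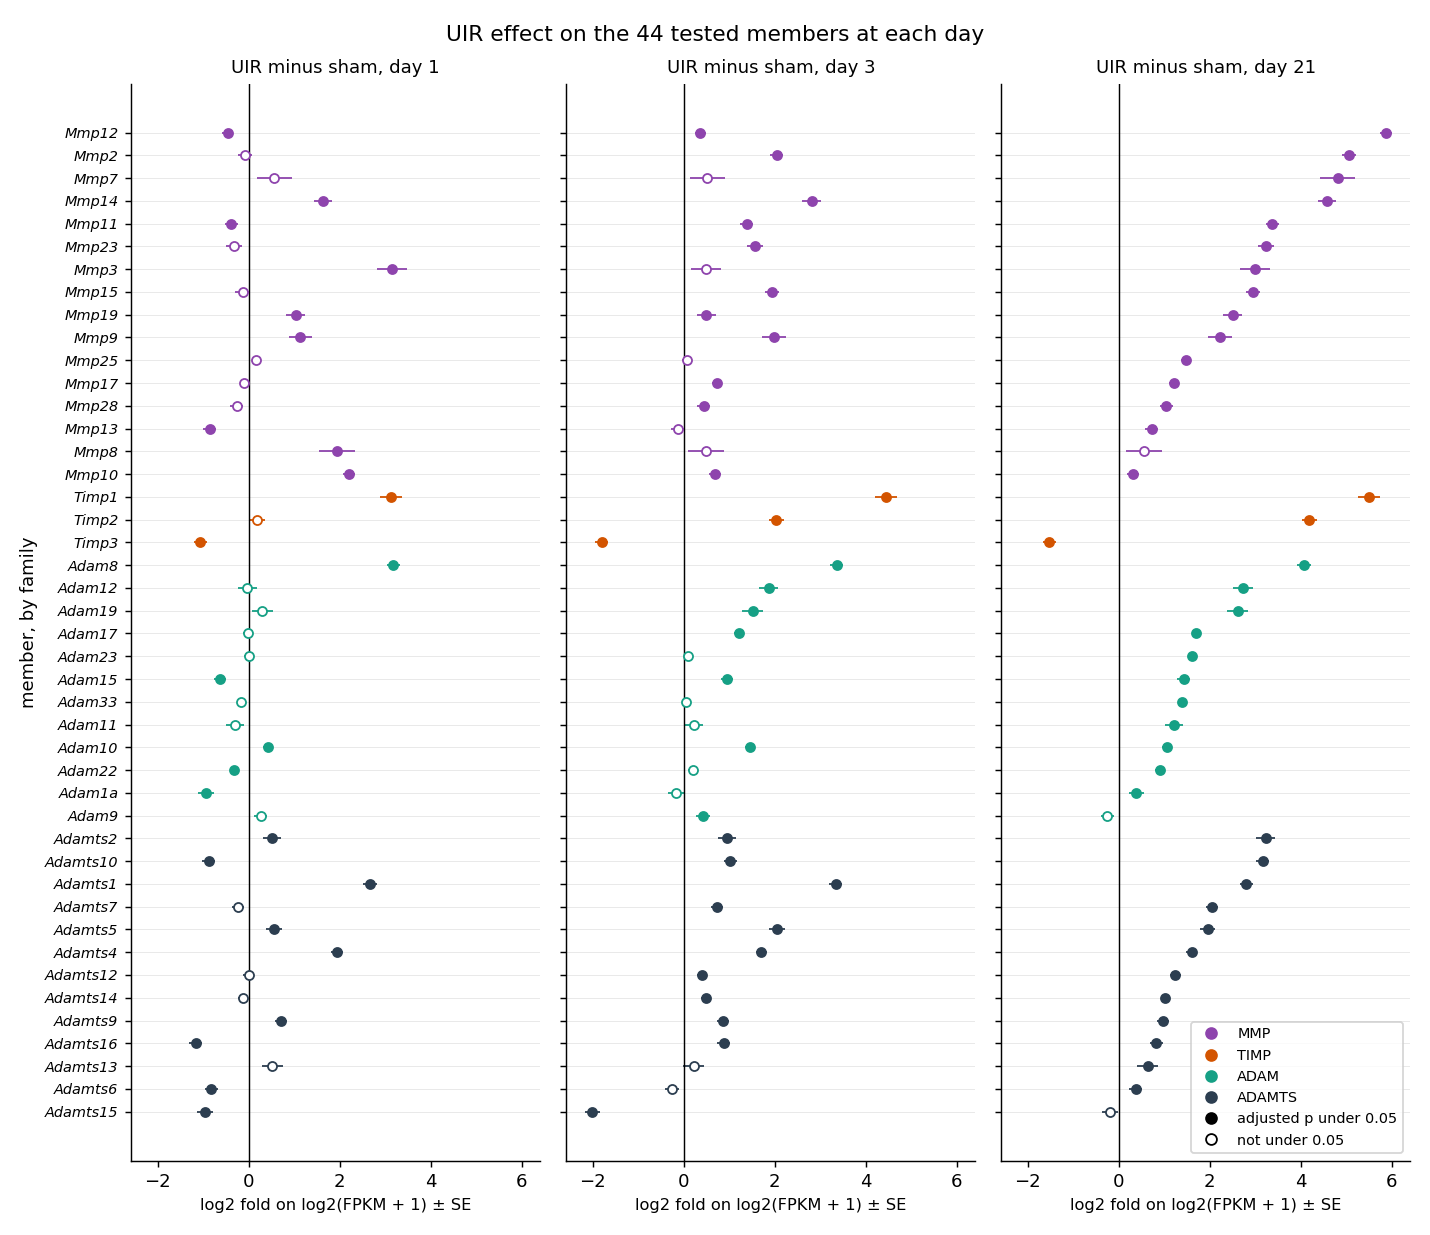
Log2 fold of UIR minus sham on the log2(FPKM + 1) scale, with its SE, for the 44 tested members at days 1, 3 and 21, grouped by family and ordered within it by the day 21 value. Filled points have a limma adjusted p under 0.05; nearly all points lie to the right of 0 at day 21, with Timp3 at -1.53 the exception among filled points.

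The timing of the increases differed between members. A set of 12 members, Adam8, Adam10, Adamts1, Adamts2, Adamts4, Adamts5, Adamts9, Mmp9, Mmp10, Mmp14, Mmp19 and Timp1, were higher in UIR kidneys on all 3 days. Another 12 were not past the threshold at day 1 and higher at days 3 and 21, among them Mmp2, Mmp15, Timp2, Adam12, Adam17 and Adam19. A further 6, Adam11, Adam23, Adam33, Adamts13, Mmp7 and Mmp25, were past it at day 21 only, and Mmp8 at day 1 only. The low values of Mmp3, Mmp7 and Mmp8 at day 3 and of Mmp8 at day 21 were nevertheless above all sham values of their day, and with a pseudocount of 0.1 their folds of 2.05, 1.87, 2.23 and 2.25 passed the threshold. Of the 44, 34 had the largest of their 3 UIR effects at day 21, 5 at day 3 and 5 at day 1. Shares of all genes with these patterns were not computed, so the counts have no background. The median over all genes itself went from -0.03 at day 1 to 0.53 at day 21. Of the 44 members, 9 would not have passed the filter without the UIR libraries of day 21. Tests of the difference between days gave 26 members with a higher effect and 5 with a lower effect at day 3 than at day 1 (50.1% and 12.7% of all genes), 30 and 3 at day 21 than at day 3 (26.1% and 20.2%), and 35 and 4 at day 21 than at day 1 (54.1% and 16.3%). Under median-of-ratios scaling the first of these splits was 19 and 7. The count of 3 members with a lower effect at day 21 than at day 3 was 1 without UIR replicate 3 or sham replicate 1 or 2 of day 3, and without UIR replicate 1 or 3 or sham replicate 2 of day 21. The count of 4 with a lower effect at day 21 than at day 1 was 1 without sham replicate 1 of day 21, and 2 without UIR replicate 1 or 2 or sham replicate 3 of day 1 or without UIR replicate 1 or 2 or sham replicate 2 or 3 of day 21.

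Summed over all members of a family in FPKM as deposited, MMP transcripts were higher and TIMP transcripts lower in UIR kidneys on each day. Among the tested TIMPs the lower one was Timp3, while Timp1 was higher on all 3 days and Timp2 at days 3 and 21. The 21 MMPs summed to 63.8 ± 19.6, 74.0 ± 11.9 and 421 ± 53 FPKM in UIR kidneys at days 1, 3 and 21, against 20.6 ± 2.4, 12.8 ± 2.8 and 13.7 ± 1.8 FPKM in sham kidneys (SD, n = 3 each). The 4 TIMPs summed to 349 ± 42, 247 ± 20 and 510 ± 9.4 FPKM in UIR kidneys, against 621 ± 84, 627 ± 63 and 665 ± 70 FPKM in sham kidneys. On each day the 3 UIR libraries and the 3 sham libraries did not overlap in either sum as deposited. The sums were not scaled to the library totals, which differed between the groups. At day 21 the TIMPs held 518 of 424207 FPKM in UIR replicate 2 and 585 of 489012 FPKM in sham replicate 2. Relative to those totals the TIMP sums of day 21 overlapped. The TIMP sum divided by the MMP sum was 5.93 ± 2.39, 3.37 ± 0.29 and 1.22 ± 0.14 in UIR kidneys, against 30.5 ± 5.5, 51.3 ± 16.8 and 49.6 ± 11.1 in sham kidneys. These are ratios of transcript levels per length and not of protein or activity. ADAMTS sums were 144 ± 6.8, 152 ± 3.6 and 175 ± 13 FPKM in UIR kidneys, against 40.95 ± 4.6, 34.3 ± 1.8 and 31.9 ± 3.5 FPKM in sham kidneys. Most of the UIR sums of days 1 and 3 came from Adamts1, whose values are given below. At day 1, 5 of the 13 tested ADAMTSs were higher and 4 lower, where 28.5% of all genes were higher and 31.1% lower. ADAM sums were 95.4 ± 11.2, 163 ± 9.5 and 209 ± 6.9 FPKM in UIR kidneys, against 84.7 ± 4.0, 74.3 ± 3.7 and 85.6 ± 6.4 FPKM in sham kidneys, and overlapped at day 1 only.

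**Figure D2:**
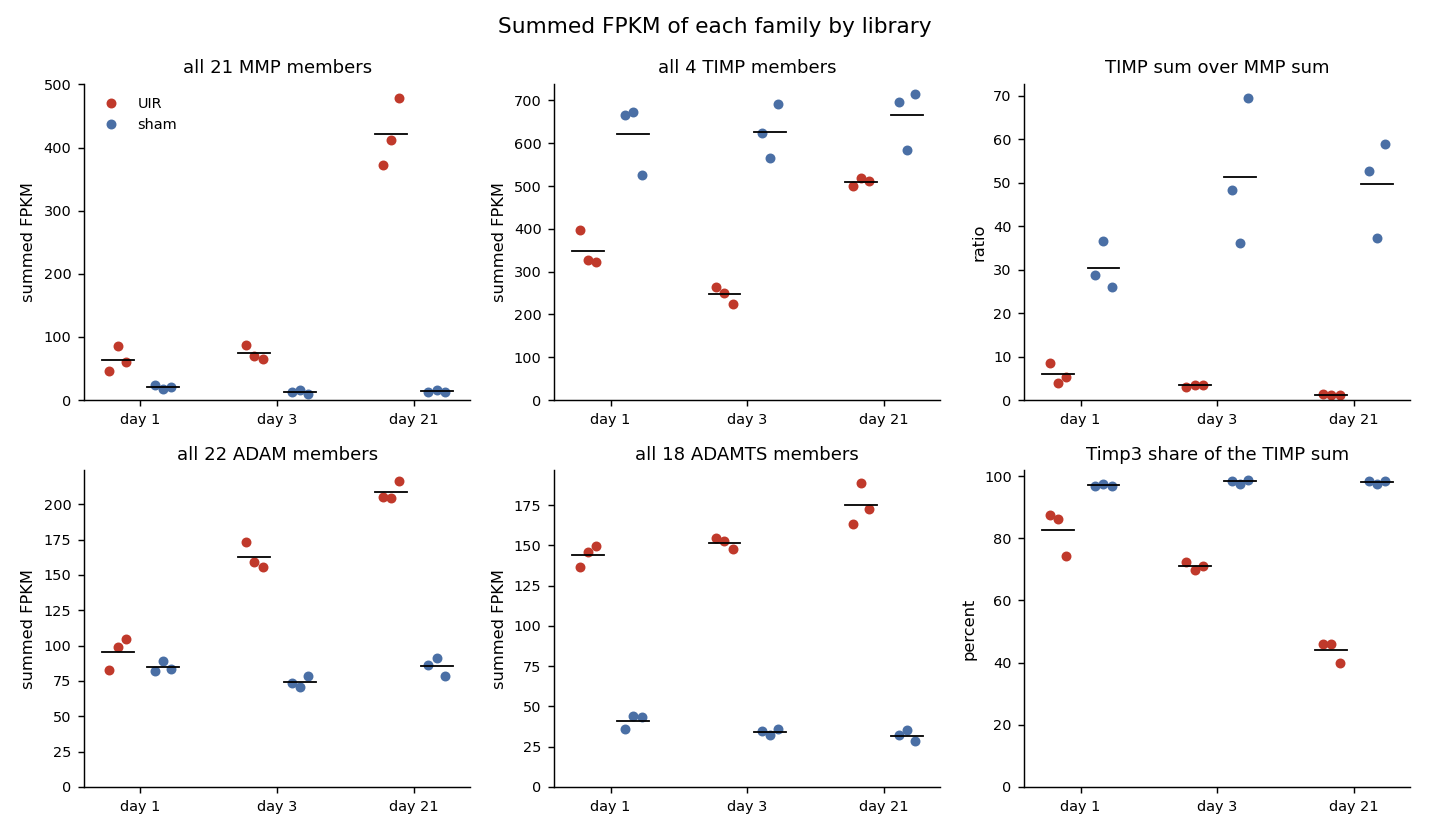
Summed FPKM of all members of each family, the ratio of the TIMP to the MMP sum and the share of Timp3 in the TIMP sum, by library, with UIR (red) and sham (blue) at each day and a line at the mean of 3. The ratio is 1.07 to 1.34 in the UIR libraries of day 21, against 37.2 to 58.8 in their sham libraries.

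The stromelysins and the collagenase of neutrophils were the members of the chromosome 9 stretch called higher at day 1. Of these, Mmp3 had a similar fold again at day 21 on the log2(FPKM + 1) scale, though both its UIR and its sham values differed between those days. Mmp3, stromelysin-1, which cuts many matrix proteins and activates other MMPs, was at 6.56, 29.0 and 10.4 FPKM in UIR kidneys of day 1, against 0.61, 0.42 and 0.62 FPKM in sham kidneys (log2 fold 3.15 ± 0.33, limma adjusted p = 8.2e-07). The 3 UIR values did not overlap the sham values, and replicate 2 was the highest. At day 3 the UIR values were 0.81, 0.32 and 0.29 FPKM, and at day 21 they were 6.99, 6.08 and 9.78 FPKM, against at most 0.11 FPKM in sham kidneys of both days. Mmp3 was thus past the threshold at days 1 and 21 (3.00 ± 0.33 at day 21, limma adjusted p = 4e-07) but not at day 3 (0.49 ± 0.33, limma adjusted p = 0.19), and the effect differed between days 1 and 3 by -2.66. Mmp10, stromelysin-2, was at 3.86, 4.44 and 2.95 FPKM in UIR kidneys of day 1, against 0.00, 0.04 and 0.04 FPKM in sham kidneys (2.2 ± 0.13, limma adjusted p = 2.2e-09). The UIR and sham values of day 1 lay far apart. At day 3 Mmp10 was at 0.34, 0.77 and 0.82 FPKM in UIR kidneys, against 0.00, 0.00 and 0.04 FPKM in sham kidneys (0.68 ± 0.13, limma adjusted p = 0.00019). At day 21 it was at 0.19, 0.14 and 0.44 FPKM in UIR kidneys and is listed at 0 in all 3 sham kidneys, so no fold is given. That call (limma adjusted p = 0.033) was lost without UIR replicate 3 or any 1 of the sham libraries.

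Mmp8, the collagenase stored in neutrophil granules, was at 9.87, 11.46 and 1.90 FPKM in UIR kidneys of day 1, against 1.69, 0.21 and 1.15 FPKM in sham kidneys (log2 fold 1.94 ± 0.40, limma adjusted p = 0.00056). UIR replicates 1 and 2 stood far above the sham libraries, whereas replicate 3 exceeded the highest sham value only narrowly. Without UIR replicate 3 the log2 fold was 2.60. The neutrophil marker S100a8 was at 58.1, 59.5 and 32.8 FPKM in the same UIR libraries, against 20.3, 4.90 and 17.5 FPKM in the sham libraries. Of 8 tested neutrophil genes 7 were higher and 1, Ly6g, lower at day 1, where 28.5% of all genes were higher and 31.1% lower. Without Lcn2, which injured tubules also make, the neutrophil list summed to 122 to 231 FPKM in UIR kidneys of day 1, against 27.5 to 79.1 FPKM in sham kidneys. Elane, Mpo, Camp and Ltf, also among the 12 genes of that list, were below the filter. The granule genes Elane and Mpo were at 0.22 FPKM or less in every library. The part of neutrophils in the Mmp8 difference was not tested.

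Mmp12, Mmp7 and Mmp13 of the same stretch were higher late. Mmp12, macrophage metalloelastase, was at 95.4, 102 and 105 FPKM in UIR kidneys of day 21, against 0.72, 0.88 and 0.62 FPKM in sham kidneys (log2 fold 5.87 ± 0.13, limma adjusted p = 3.9e-14). That was the largest log2 fold of any member on any day with a pseudocount of 1; with a pseudocount of 0.1, Timp1 (7.79) and Mmp7 (7.28) at day 21 exceeded it (6.92). At day 1 Mmp12 was instead lower, at 0.16, 0.43 and 0.15 FPKM in UIR kidneys, against 0.79, 0.66 and 0.69 FPKM in sham kidneys (-0.47 ± 0.13, limma adjusted p = 0.0054). At day 3 its UIR values of 1.00, 0.55 and 0.86 FPKM overlapped the sham values of 0.20, 0.67 and 0.34 FPKM, and the fold of 0.37 ± 0.13 (limma adjusted p = 0.017) lost the threshold after median-of-ratios scaling, at 0.18. The day 3 call of Mmp12 was also lost without UIR replicate 1, without sham replicate 1 and without sham replicate 3.

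Mmp7, matrilysin, a small epithelial MMP, was at 19.2, 19.7 and 67.7 FPKM in UIR kidneys of day 21, against 0.14, 0.07 and 0.07 FPKM in sham kidneys (log2 fold 4.81 ± 0.39, limma adjusted p = 9.5e-09). Replicate 3 was more than the sum of the other two, and without it the log2 fold was 4.22. Mmp7 was not past the threshold at day 1 (0.56 ± 0.39) or day 3 (0.52 ± 0.39). Mmp13, collagenase-3, which cuts fibrillar collagen, was at 0.07, 0.15 and 0.07 FPKM in UIR kidneys of day 1, against 1.11, 0.85 and 0.99 FPKM in sham kidneys (-0.85 ± 0.14, limma adjusted p = 9.3e-05). At day 21 it was at 2.43, 1.64 and 1.90 FPKM in UIR kidneys, against 0.86, 0.87 and 0.66 FPKM in sham kidneys (0.73 ± 0.14, limma adjusted p = 0.00021). The members of the stretch thus differed in the day and direction of their calls, and Mmp20 and Mmp27 stayed below the filter.

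**Figure D3:**
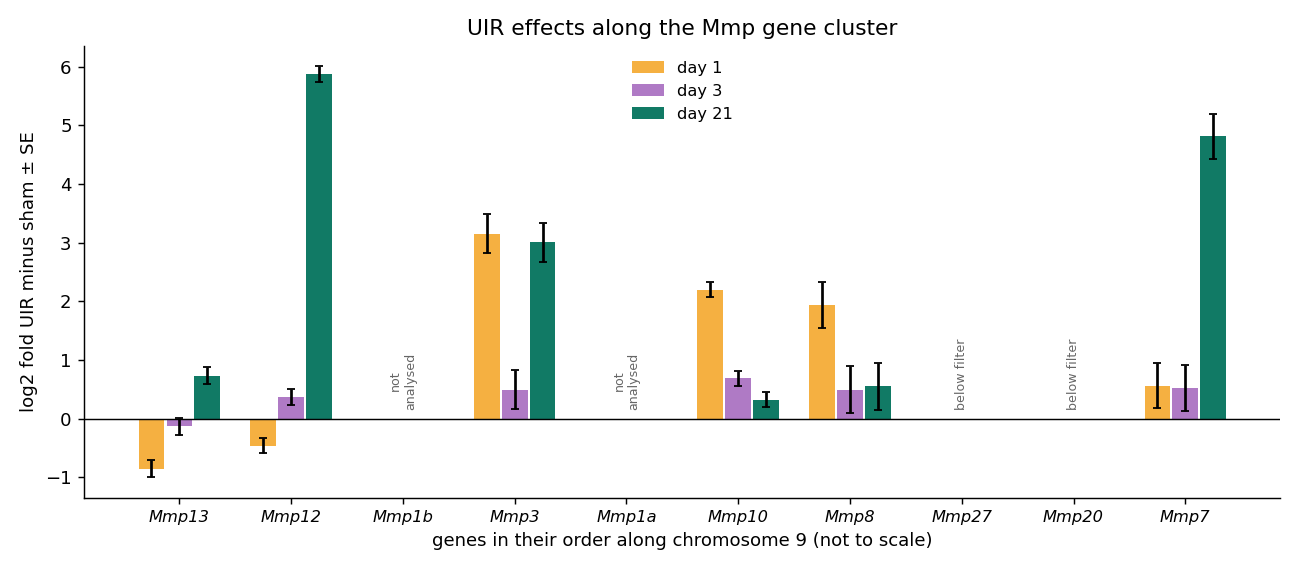
Log2 folds of UIR minus sham with SE at days 1, 3 and 21 for the genes of the chromosome 9 stretch in their RefSeq order, with spacing not to scale. Mmp3, Mmp10 and Mmp8 have the tall day 1 bars (3.15, 2.2 and 1.94), and Mmp12, Mmp7 and Mmp3 the tall day 21 bars (5.87, 4.81 and 3.00); the Mmp10 bar of day 21 is set against sham kidneys listed at 0 and depends on the pseudocount.

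Both gelatinase A and its membrane-bound activator rose, the activator from day 1 and the gelatinase from day 3. Mmp2, gelatinase A, which cuts denatured collagen and basement membrane, was at 0.33, 0.36 and 0.59 FPKM in UIR kidneys of day 1, against 0.61, 0.41 and 0.52 FPKM in sham kidneys, and the groups overlapped. At day 3 it was at 9.12, 6.21 and 4.85 FPKM in UIR kidneys, against 0.87, 0.83 and 0.80 FPKM in sham kidneys (log2 fold 2.04 ± 0.15, limma adjusted p = 5.9e-09). At day 21 it was at 62.9, 81.1 and 72.6 FPKM in UIR kidneys, against 1.2, 1.13 and 1.24 FPKM in sham kidneys (5.06 ± 0.15, limma adjusted p = 1e-12). The Mmp2 effect was larger at day 3 than at day 1 by 2.13 and at day 21 than at day 3 by 3.02. Mmp14, the membrane enzyme MT1-MMP that activates pro-Mmp2 with Timp2, was already higher at day 1, at 15.9, 25.4 and 29.7 FPKM in UIR kidneys, against 8.67, 5.50 and 6.22 FPKM in sham kidneys (1.64 ± 0.20, limma adjusted p = 4.3e-06). By day 21 it was at 103, 107 and 119 FPKM in UIR kidneys, against 3.11, 4.18 and 3.63 FPKM in sham kidneys (4.58 ± 0.20, limma adjusted p = 1.8e-11). Mmp14 held a mean of 37.9%, 47.0% and 26.1% of the MMP sum in UIR kidneys at days 1, 3 and 21, against 32.7%, 32.2% and 26.7% in sham kidneys.

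Mmp9, gelatinase B, was at 2.61, 3.10 and 1.77 FPKM in UIR kidneys of day 1, against 0.80, 0.28 and 0.67 FPKM in sham kidneys (log2 fold 1.14 ± 0.26, limma adjusted p = 0.0014). It was also higher at day 3 (1.98 ± 0.26) and at day 21 (2.23 ± 0.26), with UIR values of 1.77 to 7.79 FPKM and sham values of at most 0.80 FPKM over all days. Mmp15, the second membrane-type MMP, was not past the threshold at day 1 (-0.14 ± 0.16) and reached 15.9, 16.4 and 18.1 FPKM in UIR kidneys of day 21, against 1.11, 1.83 and 1.02 FPKM in sham kidneys (2.95 ± 0.16, limma adjusted p = 8.7e-11). The enzymes held at the membrane by a lipid anchor stayed low: Mmp17 reached 2.61 FPKM and Mmp25, leukolysin, 2.68 FPKM at most, both in UIR kidneys of day 21, where their log2 folds were 1.21 ± 0.10 and 1.48 ± 0.11. Mmp11, stromelysin-3, which is activated inside the cell by furin, was at 26.5, 30.1 and 27.9 FPKM in UIR kidneys of day 21, against 2.13, 2.00 and 1.37 FPKM in sham kidneys (3.37 ± 0.14, limma adjusted p = 1.3e-11). The groups did not overlap, and Mmp11 had been lower at day 1 (-0.39 ± 0.14, limma adjusted p = 0.028), a call that was lost against later sham kidneys (-0.24) and without UIR replicate 1, UIR replicate 3, sham replicate 1 or sham replicate 3. Mmp23, which is cut free of the membrane during secretion, was at 23.2, 29.1 and 29.3 FPKM in UIR kidneys of day 21, against 2.03, 2.18 and 1.80 FPKM in sham kidneys (3.23 ± 0.18, limma adjusted p = 1.2e-10). Mmp19, a basement membrane protease, was higher on all 3 days (1.03 ± 0.21, 0.50 ± 0.21 and 2.50 ± 0.21), and Mmp28, epilysin, at day 3 (0.44 ± 0.14) and day 21 (1.04 ± 0.14). After median-of-ratios scaling the day 3 folds of Mmp19 (0.33) and Mmp28 (0.18) missed the threshold. The day 3 call of Mmp19 was also lost without UIR replicate 1 or 2 or sham replicate 1 or 3, and that of Mmp28 without UIR replicate 1.

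**Figure D4:**
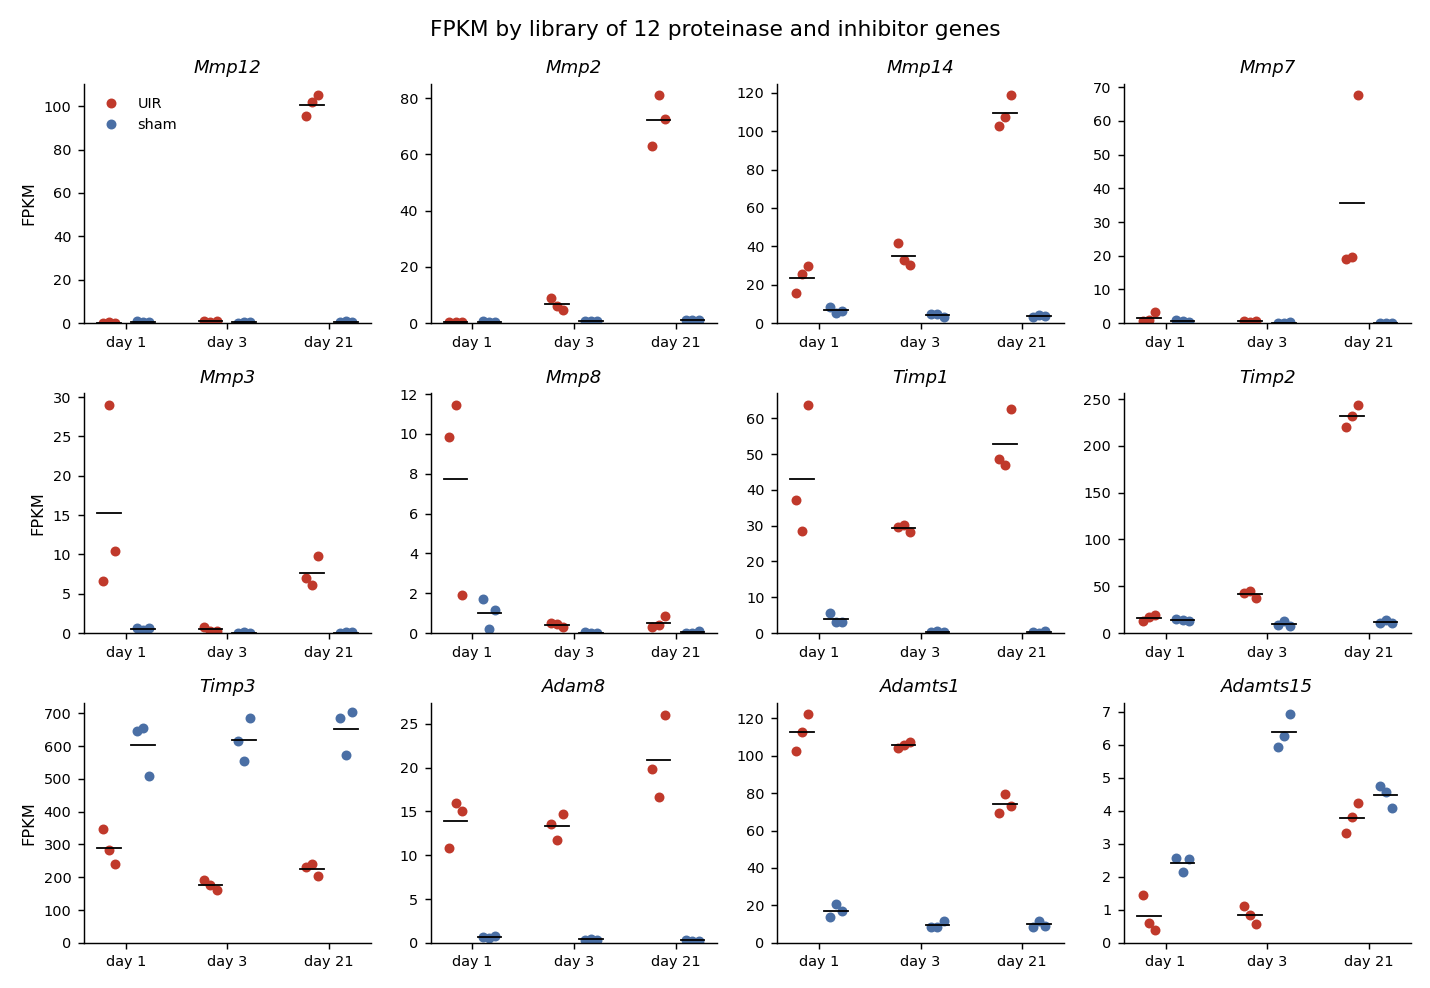
FPKM in every library for 12 members, with UIR (red) left of sham (blue) at each day and a line at the mean of 3; each panel has its own linear axis from 0. Mmp12, Mmp2 and Timp2 are highest in the UIR libraries of day 21, Mmp8 in those of day 1, and Timp3 is lower in UIR than in sham libraries on every day.

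The inhibitors did not move as a block. Timp1, the soluble inhibitor known as a marker of injury and fibrosis, was at 37.1, 28.5 and 63.8 FPKM in UIR kidneys of day 1, against 5.48, 3.16 and 3.07 FPKM in sham kidneys (log2 fold 3.12 ± 0.24, limma adjusted p = 3.5e-08). In the UIR kidneys of days 3 and 21 Timp1 ran from 28.2 to 62.6 FPKM, against 0.69 FPKM or less in the sham kidneys. All UIR values thus lay between 28.2 and 63.8 FPKM, while the sham values were higher at day 1 than later. The log2 folds were 4.44 ± 0.24 at day 3 and 5.50 ± 0.24 at day 21 (limma adjusted p = 2e-10 and 1.9e-11). Timp2, which inhibits Mmp2 and also carries it to Mmp14, was at 12.7, 16.9 and 18.8 FPKM in UIR kidneys of day 1, against 15.3, 13.9 and 12.7 FPKM in sham kidneys, with overlap. It was at 43.2, 45.1 and 36.9 FPKM in UIR kidneys of day 3, against 9.09, 12.9 and 7.09 FPKM in sham kidneys (2.03 ± 0.17, limma adjusted p = 1.9e-08). At day 21 Timp2 was at 220, 232 and 244 FPKM in UIR kidneys, against 10.8, 13.6 and 11.1 FPKM in sham kidneys (4.18 ± 0.17, limma adjusted p = 8.7e-12).

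Timp3, the inhibitor that binds to matrix and also blocks Adam17 and several ADAMTSs, was the single member lower on all 3 days. It was at 347, 283 and 239 FPKM in UIR kidneys of day 1, against 645, 656 and 509 FPKM in sham kidneys (log2 fold -1.06 ± 0.14, limma adjusted p = 1e-05). At day 3 it was at 192, 175 and 160 FPKM in UIR kidneys, against 615, 553 and 684 FPKM in sham kidneys (-1.80 ± 0.14, limma adjusted p = 1.2e-08). At day 21 it was at 230, 239 and 205 FPKM in UIR kidneys, against 686, 571 and 703 FPKM in sham kidneys (-1.53 ± 0.14, limma adjusted p = 5.1e-08). The groups did not overlap on any day, and under median-of-ratios scaling the folds were -1.02, -2.34 and -2.15. Timp3 made up a mean of 82.6%, 71.2% and 44.1% of the TIMP sum in UIR kidneys at days 1, 3 and 21, against 97.1%, 98.3% and 98.1% in sham kidneys, where it was the most abundant member. At day 21 the ranges of Timp2 and Timp3 FPKM overlapped in UIR kidneys. Timp4 was at 0.26 FPKM or less in every library and was not tested.

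Among the ADAMs, Adam8, a leukocyte sheddase, had the largest log2 fold on the log2(FPKM + 1) scale on every day. It was at 10.9, 15.9 and 15.0 FPKM in UIR kidneys of day 1, against 0.62, 0.55 and 0.73 FPKM in sham kidneys (log2 fold 3.18 ± 0.15, limma adjusted p = 2.6e-10). It was at 19.8, 16.7 and 26.1 FPKM in UIR kidneys of day 21, against 0.33, 0.25 and 0.26 FPKM in sham kidneys (4.07 ± 0.15, limma adjusted p = 3.8e-12), and the groups did not overlap on any day. Adam10, the sheddase of Notch, was higher on all 3 days (0.42 ± 0.11, 1.46 ± 0.11 and 1.06 ± 0.11), reaching 44.9, 41.6 and 46.6 FPKM in UIR kidneys of day 3, against 14.8, 14.4 and 17.3 FPKM in sham kidneys. Adam17, which sheds TNF and ligands of the EGF receptor, was at 6.35, 7.82 and 6.98 FPKM in UIR kidneys of day 1, against 6.98, 7.56 and 6.95 FPKM in sham kidneys (-0.02 ± 0.09, limma adjusted p = 0.85). At day 21 it was at 26.6, 23.4 and 25.7 FPKM in UIR kidneys, against 6.62, 7.94 and 6.77 FPKM in sham kidneys (1.70 ± 0.09, limma adjusted p = 1.5e-10). At day 1 Adam10 was past the threshold and Adam17 was not; the difference between the genes was not tested.

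Adam12 and Adam19, both found in mesenchymal cells, were higher at days 3 and 21. Adam12 was at 5.57, 4.17 and 2.2 FPKM and Adam19 at 5.29, 4.16 and 1.61 FPKM in UIR kidneys of day 3, against 0.21 to 0.42 FPKM for Adam12 and 0.44 to 0.66 FPKM for Adam19 in sham kidneys. Their log2 folds were 1.87 ± 0.21 and 1.51 ± 0.23 at day 3 and 2.73 ± 0.21 and 2.61 ± 0.23 at day 21 (limma adjusted p of 2e-05 or lower). UIR replicate 3 was the lowest of its group at day 3 for both. The same held for 18 of the 30 members higher at that day, for 11 of 12 macrophage markers and for all 10 fibroblast markers. The share of all genes with their lowest value in that library was not computed, so these counts have no background. Adam15, an adhesion-binding ADAM, was lower at day 1, at 17.9, 15.8 and 25.3 FPKM in UIR kidneys, against 32.0, 29.0 and 30.2 FPKM in sham kidneys (-0.63 ± 0.14, limma adjusted p = 0.00084), and higher at day 3 (0.95 ± 0.14) and day 21 (1.42 ± 0.14). Adam9, a widely expressed sheddase, was at 33.3, 31.4 and 32.2 FPKM in UIR kidneys of day 3, against 24.95, 18.9 and 28.3 FPKM in sham kidneys (0.43 ± 0.15, limma adjusted p = 0.016), a direction that turned to -0.089 under median-of-ratios scaling and a call that was lost without sham replicate 2.

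Several ADAMs of low level, among them those without a working active site, were higher at day 21. Adam22, Adam23 and Adam33 passed the filter only through UIR libraries, so their calls as higher are partly set by the filter. Adam11 and Adam1a passed it on sham libraries alone. Adam11, Adam22 and Adam23, inactive members known as binding partners of secreted LGI proteins in neurons, reached 6.13, 2.49 and 2.60 FPKM at most, all in UIR kidneys of day 21. Their log2 folds at that day were 1.21 ± 0.20, 0.89 ± 0.10 and 1.62 ± 0.11. Adam33 was at 1.81, 2.25 and 1.74 FPKM in UIR kidneys of day 21, against 0.14, 0.10 and 0.10 FPKM in sham kidneys (1.39 ± 0.09, limma adjusted p = 1.3e-09). Adam1a, fertilin alpha, known from mouse sperm, fell at day 1 to 1.03, 0.91 and 1.23 FPKM in UIR kidneys, against 2.59, 3.97 and 2.44 FPKM in sham kidneys (-0.94 ± 0.17, limma adjusted p = 0.00021). Its day 21 fold of 0.39 ± 0.17 (limma adjusted p = 0.0497) turned to -0.074 under median-of-ratios scaling, and the call was lost without UIR replicate 1 or 2 or sham replicate 1 or 3.

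Among the proteoglycan-cutting ADAMTSs, Adamts1, Adamts4, Adamts5 and Adamts9 were higher on all 3 days, and Adamts15 was lower at days 1 and 3. Adamts1, which cuts versican and aggrecan, was at 102, 113 and 122 FPKM in UIR kidneys of day 1, against 13.6, 20.9 and 16.8 FPKM in sham kidneys (log2 fold 2.67 ± 0.14, limma adjusted p = 9.5e-10). It was at 104, 106 and 107 FPKM in UIR kidneys of day 3, against 8.55, 8.65 and 11.7 FPKM in sham kidneys (3.34 ± 0.14, limma adjusted p = 1.2e-11). At day 21 it was at 69.2, 79.5 and 73.3 FPKM in UIR kidneys, against 8.70, 11.8 and 9.02 FPKM in sham kidneys (2.80 ± 0.14, limma adjusted p = 6.5e-11). Adamts1 was the most abundant ADAMTS in UIR kidneys on each day, and no UIR value overlapped a sham value. Adamts4, an aggrecanase, was at 6.92, 6.86 and 7.67 FPKM in UIR kidneys of day 1, against 1.39, 0.75 and 1.31 FPKM in sham kidneys (1.94 ± 0.13, limma adjusted p = 7.2e-09), with folds of 1.71 ± 0.13 at day 3 and 1.60 ± 0.13 at day 21. Adamts5, the other main aggrecanase, was at 11.2, 11.8 and 10.8 FPKM in UIR kidneys of day 3, against 2.16, 2.68 and 1.27 FPKM in sham kidneys (2.04 ± 0.17, limma adjusted p = 2.6e-08), with folds of 0.56 ± 0.17 at day 1, a call lost against later sham kidneys, and 1.95 ± 0.17 at day 21. Adamts9, a versican-cutting member, was higher on all days (0.70 ± 0.13, 0.86 ± 0.13 and 0.98 ± 0.13).

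Adamts15, also a versican-cutting enzyme, went the other way. It was at 1.44, 0.61 and 0.38 FPKM in UIR kidneys of day 1, against 2.58, 2.15 and 2.55 FPKM in sham kidneys (log2 fold -0.96 ± 0.17, limma adjusted p = 0.00013). At day 3 it was at 1.13, 0.85 and 0.56 FPKM in UIR kidneys, against 5.92, 6.27 and 6.93 FPKM in sham kidneys (-2.01 ± 0.17, limma adjusted p = 2.2e-08). At day 21 its UIR values of 3.33, 3.81 and 4.24 FPKM overlapped the sham values of 4.76, 4.58 and 4.10 FPKM, and the fold of -0.20 ± 0.17 missed the threshold (limma adjusted p = 0.29), while the value under median-of-ratios scaling, -0.69, was past it.

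The procollagen N-proteinases changed mainly late. Adamts2, which trims fibrillar procollagens, was at 12.9, 14.9 and 14.4 FPKM in UIR kidneys of day 21, against 0.61, 0.64 and 0.58 FPKM in sham kidneys (log2 fold 3.22 ± 0.20, limma adjusted p = 5.7e-10). Its day 3 fold of 0.95 ± 0.20 was 0.62 without UIR replicate 1, and its day 1 fold of 0.51 ± 0.20 (limma adjusted p = 0.041) missed the threshold without any 1 of the 6 libraries of that day. Adamts14, of the same kind, was at 1.58, 1.63 and 1.67 FPKM in UIR kidneys of day 21, against 0.31, 0.27 and 0.29 FPKM in sham kidneys (1.03 ± 0.11, limma adjusted p = 2.4e-07). Adamts10, linked to fibrillin microfibrils, was at 34.8, 42.9 and 37.7 FPKM in UIR kidneys of day 21, against 2.98, 4.34 and 2.96 FPKM in sham kidneys (3.17 ± 0.14, limma adjusted p = 2.1e-11), after being lower at day 1 (-0.88 ± 0.14). Adamts7 and Adamts12, which form a subgroup by structure, had day 21 folds of 2.05 ± 0.13 and 1.24 ± 0.12. Adamts16 was at 0.25, 0.17 and 0.28 FPKM in UIR kidneys of day 1, against 1.76, 1.5 and 2.04 FPKM in sham kidneys (-1.16 ± 0.15, limma adjusted p = 5e-06), and was higher at day 3 (0.88 ± 0.15) and day 21 (0.83 ± 0.15). Adamts13, the protease of von Willebrand factor, was at 14.1, 12.35 and 7.09 FPKM in UIR kidneys of day 1, against 6.07, 6.22 and 9.83 FPKM in sham kidneys, with overlap (0.52 ± 0.23, limma adjusted p = 0.063). Its day 21 fold of 0.63 ± 0.23 (limma adjusted p = 0.019) was 0.10 under median-of-ratios scaling, and the call was lost without UIR replicate 2 or sham replicate 3.

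A group of 9 members was lower at day 1 and higher at day 21. These were Mmp11, Mmp12, Mmp13, Adam15, Adam22, Adam1a, Adamts6, Adamts10 and Adamts16. The difference between those days was past the threshold for each. Since the members were picked by opposite calls in the same fit, that adds no separate support. Mmp12, Mmp13 and Adam22 passed the filter only through UIR libraries. The share of all genes with such a turn was not computed. The size of the turn was 6.34 for Mmp12, 4.04 for Adamts10, 3.76 for Mmp11, 2.05 for Adam15 and 1.99 for Adamts16 on the log2 scale. For Adam1a and Adamts6 the higher side was not stable, since their day 21 folds of 0.39 and 0.37 turned to -0.074 and -0.026 under median-of-ratios scaling. The day 21 call of Adamts6 was also lost without UIR replicate 1 or 2 or sham replicate 2 or 3. The lower side was lost for Adam15 (-0.13) and Mmp11 (-0.24) when the later sham kidneys served as control, and for Adam22 without sham replicate 2 of day 1 (-0.26).

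Sham kidneys themselves differed between days, which bears on every day 1 value. Of the 44 tested members 10 were higher and 4 lower in sham kidneys of day 1 than in the mean of sham days 3 and 21, where 31.9% of all genes were higher and 14.1% lower. The split was 6 and 5 under median-of-ratios scaling, and 6 were higher without sham replicate 3 of day 1 or of day 21. Timp1 had the largest such difference (log2 1.90 ± 0.21, limma adjusted p = 3.3e-06), followed by Adamts4 (0.93 ± 0.11), Mmp8 (0.91 ± 0.34), Adamts1 (0.75 ± 0.12) and Mmp14 (0.67 ± 0.18). The lower ones were Adamts15 (-0.89 ± 0.14), Adamts5 (-0.54 ± 0.15), Adam9 (-0.53 ± 0.13) and Mmp2 (-0.41 ± 0.13). In the same sham libraries of day 1 the tubular injury list summed to 268.5 to 514 FPKM, against 65.2 to 91.8 FPKM in later sham libraries, and the adipose list to 5.94 to 9.83 FPKM, against 0.36 FPKM or less. The neutrophil list without Lcn2 summed to 27.5 to 79.1 FPKM there, against 8.92 to 15.95 FPKM in later sham libraries. Their part in these differences was not tested.

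Setting the UIR kidneys of day 1 against the later sham kidneys gave 17 members higher and 11 lower, where 39.6% of all genes were higher and 32% lower. The calls of Adam15, Adamts5 and Mmp11 were not past the threshold against that control. Adamts13 (1.09), Mmp7 (1.14), Timp2 (0.55) and Mmp25 (0.22) were past it as higher, and Mmp2 (-0.49) and Mmp15 (-0.35) as lower. Timp1 had a log2 fold of 5.02 against the later sham kidneys, beside 3.12 against those of its own day. Both comparisons share the UIR libraries of day 1.

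**Figure D5:**
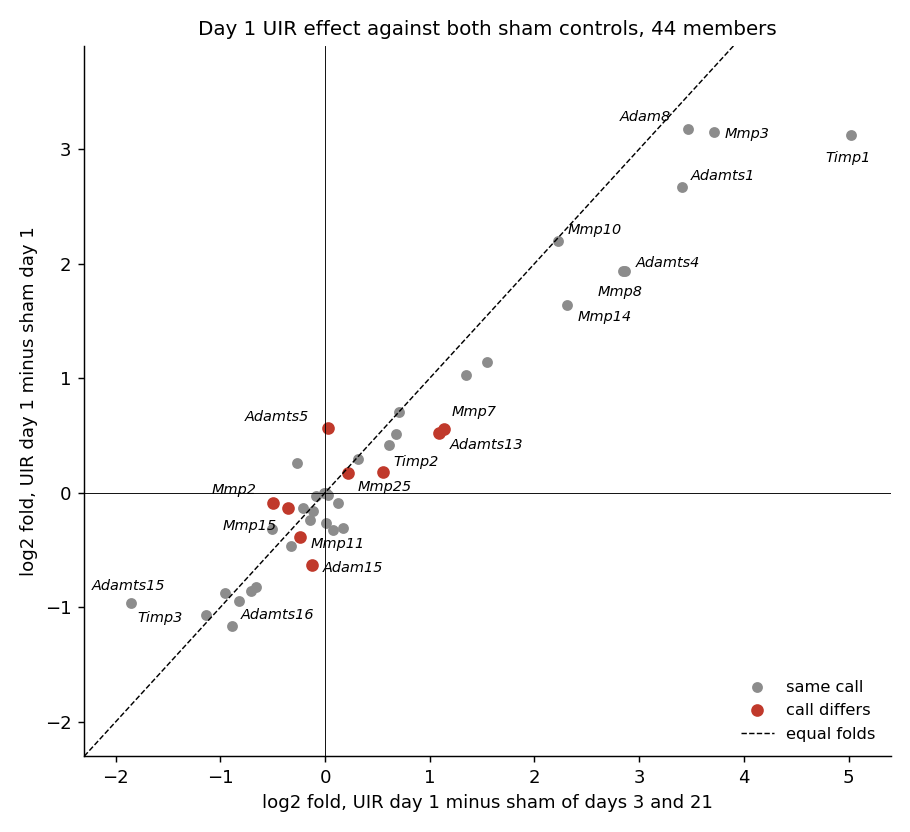
Log2 folds of UIR kidneys of day 1 for the 44 tested members, against sham kidneys of days 3 and 21 on the horizontal axis and against sham kidneys of day 1 on the vertical axis. Red points are the 9 members whose call differs between the controls, and the dashed line marks equal folds; Timp1 lies at 5.02 and 3.12.

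Genes that activate, anchor or inhibit the members were read from a list of 38, of which 34 were tested. At days 1, 3 and 21, 12, 21 and 24 of them were higher and 7, 5 and 6 lower, with medians of 0.03, 0.61 and 1.30. Of all genes tested, 28.5%, 57.6% and 60.7% were higher and 31.1%, 17.9% and 20.1% lower at those days, with medians of -0.03, 0.44 and 0.53, so the shares of the list were near those of all genes. In the plasmin system at day 1, Plaur, the urokinase receptor (log2 fold 3.9), and Plat, tissue plasminogen activator (1.52), were higher by limma at an adjusted p of 1e-05 or lower. Plau, urokinase itself, was not past the threshold at days 1, 3 or 21 (0.62, 0.45 and -0.55). Plg, plasminogen itself, was at 0.48 FPKM or less in every library. The brush border metalloproteases Mep1a and Mep1b fell on all 3 days, by 1.75, 3.14 and 3.78 and by 2.00, 5.57 and 4.96. Reck, Furin, Rhbdf2, Hbegf, Plau and Plg are named for their roles after their values were seen. Reck, a membrane-anchored MMP inhibitor, was at 6.14, 6.24 and 6.60 FPKM in UIR kidneys of day 21, against 1.45, 1.35 and 1.17 FPKM in sham kidneys (1.66, limma adjusted p = 4.2e-10). Furin, which activates MMP and ADAM precursors, was lower at day 21 (-0.76, limma adjusted p = 2.3e-06). Rhbdf2, the iRhom that carries Adam17 to the surface, was higher on all 3 days (0.77, 2.51 and 2.27).

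Substrates were counted in the same fit. Of 36 tested matrix substrates 10, 31 and 33 were higher and 5, 2 and 2 lower at days 1, 3 and 21, with medians of 0.08, 1.74 and 3.00, beside the same shares and medians of all genes. Tnc, tenascin-C, and Spp1, osteopontin, were the largest increases among them at day 1 (2.67 and 2.54), and Col1a1, Col3a1 and Col1a2, fibrillar collagen chains, at day 21 (5.54, 5.36 and 4.86). The basement membrane collagen chains Col4a3 and Col4a4 fell on all 3 days, by 1.30, 1.54 and 0.61 and by 0.93, 0.95 and 0.90. Of 37 tested substrates of shedding 19, 26 and 27 were higher and 5, 5 and 4 lower, with medians of 0.35, 1.24 and 1.35, where 28.5%, 57.6% and 60.7% of all genes were higher and 31.1%, 17.9% and 20.1% lower. The EGF receptor ligand Hbegf was at 158, 97.8 and 54.5 FPKM in UIR kidneys of day 1, against 15.2, 30.1 and 22.1 FPKM in sham kidneys (2.08, limma adjusted p = 2.3e-05). Kl, klotho, which is released by shedding, was at 14.1, 15.2 and 4.68 FPKM in UIR kidneys of day 21, against 226, 241 and 222 FPKM in sham kidneys (-4.37, limma adjusted p = 1.1e-09), and Egf fell by 4.77 at the same day.

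Counts of cell type markers, like those of all genes, differed between the days. Of all genes tested, 28.5%, 57.6% and 60.7% were higher and 31.1%, 17.9% and 20.1% lower at days 1, 3 and 21. At days 1, 3 and 21, 3, 12 and 12 of 12 monocyte and macrophage genes were higher and 3, 0 and 0 lower. Their summed FPKM was 142 to 150.5, 356 to 878 and 3492 to 4900 in UIR kidneys, against 95.2 to 144, 62.3 to 71.3 and 59.1 to 72.8 in sham kidneys. Of 10 fibroblast genes 0, 10 and 10 were higher and 1, 0 and 0 lower, with sums of 63.6 to 78.5, 162 to 399 and 811 to 882 FPKM in UIR kidneys, against 77.7 to 104, 39.9 to 70.5 and 46.0 to 59.8 FPKM in sham kidneys. Col1a1, Dcn, Lum and Postn of that list are also matrix substrates. Of 9 endothelial genes 1, 3 and 8 were higher and 3, 0 and 0 lower. Of 6 tested T cell genes 0, 6 and 6 were higher, and of 10 proximal tubule genes 3, 10 and 10 were lower. For 6 podocyte genes the counts were 0, 5 and 6 higher and 2, 0 and 0 lower. Among 7 thick limb and distal tubule genes, 0, 1 and 1 were higher and 3, 5 and 4 lower. The 7 collecting duct genes gave 3, 2 and 1 higher and 4, 3 and 4 lower. Of 3 tested B cell genes 0, 0 and 3 were higher and 0, 1 and 0 lower, and of 7 proliferation genes 1, 7 and 7 were higher. The part of changing cell numbers in any member's difference was not tested.

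Of the 21 members below the filter, 18 never reached 1 FPKM in any library, and Adamts17, Mmp24 and Adam5 reached it in at most 2. Their highest values were 1.76, 1.36 and 1.15 FPKM, all in UIR kidneys of day 21. Adam2, Adam3, Adam30, Adamts18 and Adamts20 stayed at 0.07 FPKM or less, Mmp20 and Adam21 at 0.11 FPKM or less, and Mmp21 at 0.15 FPKM or less. Adam28, a lymphocyte ADAM, peaked at 0.54 FPKM, and Adamts8, an anti-angiogenic member, at 0.88 FPKM. Of the tested members 11 share exon sequence with another gene in the GENCODE annotation of GRCm38, all of them on the opposite strand and Adam1a on both. These are Adam15, Adam17, Adam19, Adam1a, Adam8, Adamts7, Adamts9, Mmp12, Mmp19, Mmp28 and Mmp7, and since no source used here states whether counting used the strand, reads of the 2 genes of a pair may not be told apart.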

How the data were processed

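RNA of 18 mouse kidneys was sequenced, with 3 labelled biological replicates in each of 6 groups. The authors deposited 1 table of FPKM per gene and library, with 2 of the 18 columns lacking the word FPKM in their header. Per the submitters' processing notes, RSEM 1.2.12, HISAT2 2.0.4 and Bowtie2 2.2.5 were used with mm9, with no role given for each; strand use in counting and any further scaling are not given in the sources used here. FPKM values keep no read count, so depth is unknown and no counting interval is given. Groups came from the labels. No pair of libraries held identical values.

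The 14716 genes with at least 1 FPKM in at least 3 of 18 libraries were tested on log2(FPKM + 1) with limma 3.58.1 in R 4.3.3, with 1 mean per group, a trended moderated variance, 12 residual degrees of freedom, two-sided tests and Benjamini-Hochberg adjustment over all genes at 0.05. A fold on this scale understates the change of low genes. The code was tested on simulated data. Contrasts set UIR against sham kidneys day by day, and further took differences of that effect between days, sham day 1 minus later sham, and UIR day 1 minus later sham. Alternatives were other pseudocounts and filters, TPM, median-of-ratios scaling, a fit over only the groups compared, a replicate block and each library left out. Members and lists were chosen with earlier results of these data known. Members were named by role and by the size of their called change, and list genes by the largest called change, up to 6 a day, with exceptions stated; an item of the regulator list is not reported here by name. Promoter windows came from the RefSeq table of GRCm38.p6, another build than the files', and were matched by symbol.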

Additional observations from a re-analysis of the deposited data

Results flagged for a closer look

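The UIR effect differed between days by the test of the difference itself, with limma adjusted p under 0.05, in the following results. At day 3 against day 1 it was higher for 26 members and lower for 5. The log2 differences were -2.66 for Mmp3, 2.13 for Mmp2, 2.08 for Mmp15, 2.04 for Adamts16 and 1.90 for Adam12, the 5 largest in size. Members whose calls at both days had opposite directions differed by 1.58 for Adam15, 1.89 for Adamts10, 1.77 for Mmp11 and 0.83 for Mmp12. For members picked by opposite calls, here and below, a difference is built into the choice.

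At day 21 against day 3 the effect was higher for 30 members and lower for 3. The 5 largest differences were 5.50 for Mmp12, 4.29 for Mmp7, 3.02 for Mmp2, 2.51 for Mmp3 and 2.27 for Adamts2.

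At day 21 against day 1 the effect was higher for 35 members and lower for 4. The 5 largest differences were 6.34 for Mmp12, 5.14 for Mmp2, 4.25 for Mmp7, 4.04 for Adamts10 and 4.00 for Timp2. Members that were lower at day 1 and higher at day 21 differed by 2.05 for Adam15, 1.33 for Adam1a, 1.21 for Adam22, 1.99 for Adamts16, 1.19 for Adamts6, 3.76 for Mmp11 and 1.58 for Mmp13. Groups of 3 libraries are too small for the test of single outlying samples.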

How the results depend on the processing

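Of 98 calls of a member at a day, 85 were kept under every alternative in which the member was tested at that day. The other 13 were lost under at least 1 alternative, and 11 of these without a single library. The filter of 5 FPKM reached only 66 of the 98 calls, and the later sham control those of day 1 only. Requiring 5 FPKM tested fewer members and gave 6 lower at day 1, 25 higher at day 21, 17 higher and 3 lower for day 3 minus day 1, 19 higher for day 21 minus day 3, and 21 higher and 2 lower for day 21 minus day 1. Median-of-ratios scaling gave 5 lower at day 3, 3 lower at day 21 and 6 higher in sham day 1 against later sham, and it turned Adam1a at day 21 to -0.074, Adam9 at day 3 to -0.089 and Adamts6 at day 21 to -0.026; the cause was not tested. TPM gave 3 lower for day 3 minus day 1 and 1 lower for day 21 minus day 1, and the fit over only the groups compared 2 lower for the last. Without 1 library, counts of members higher and lower ranged over 13 to 14 and 10 to 11 at day 1, 27 to 30 and 2 to 4 at day 3, and 36 to 39 and 1 to 1 at day 21. They ranged over 24 to 28 and 4 to 6 for day 3 minus day 1, 27 to 31 and 1 to 3 for day 21 minus day 3, 35 to 35 and 1 to 3 for day 21 minus day 1, and 6 to 9 and 3 to 4 for the sham comparison. The labels do not say whether the replicate numbers pair the libraries. Deviations of same-numbered libraries correlated at -0.0705 to 0.113, which cannot decide it with 3 libraries a group. With the replicate number as a block the counts were 14 and 11, 30 and 2, and 40 and 1 at the 3 days, with 0 calls lost. Depth is unknown, and values under 1 FPKM carry the least information.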
